A study of Rattus norvegicus with 12 samples.

Results

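Actin filaments are taken apart and rebuilt by a small set of proteins, and 10 of their genes were followed here in cultured rat heart muscle: the profilins Pfn1 and Pfn2, the thymosins Tmsb4x and Tmsb10, the cofilins Cfl1 and Cfl2, gelsolin (Gsn), the capping protein subunit Capzb, and the cytoplasmic actins Actb and Actg1. Their members on the array were every probe set that carried one of these symbols and no other, and the 3 control probe sets that read the 3' end, the middle and the 5' end of the rat Actb transcript. This gave 14 of the 31099 probe sets, 11 of them with a member symbol and 3 controls, for 8 of the 10 genes, on an array where 14217 genes have a probe set of their own. Cfl1 and Tmsb10 had no probe set of their own, and 4 probe sets that share a member symbol with other genes were left out.

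The measurements came from right ventricular papillary muscles, the small muscular pillars to which the cords of the tricuspid valve attach, each taken from a different adult male LBNF1 rat, so that the 12 arrays are 12 animals. Every muscle was held in oxygenated culture medium at 37 °C for 12 h, paced at 1 Hz and given fresh medium at 6 h, and 2 mechanical inputs were set. In the high-high muscles mean stretch had a target of 16% of slack length and cyclic shortening a target of 16%, in the high-low muscles stretch was 16% and shortening 4%, in the low-high muscles stretch was 4% and shortening 16%, and in the low-low muscles both were 4%, with 3 muscles in each of the 4 groups. All groups were thus cultured and paced, and a muscle taken fresh from the heart was not analysed here. Values are RMA-normalized log2 intensities as deposited. With 3 muscles a group, the 95% confidence intervals of differences between groups had a median half-width of 0.36 log2, or 1.28-fold.

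Actin filaments grow by adding monomers, mostly ATP-bound ones, at their barbed end and lose ADP-bound monomers at the pointed end. Profilin binds monomers and helps to load them with ATP and to deliver them to barbed ends, whereas thymosin beta-4 (Tmsb4x) holds monomers in a reserve that cannot polymerize. Cofilin severs and depolymerizes older filament, gelsolin severs filaments in the presence of calcium and caps the new end, and capping protein, of which Capzb encodes the beta subunit, stops growth at barbed ends and in striated muscle anchors thin filaments at the Z disc. In heart muscle the sarcomere is built from cardiac and skeletal actin, while Actb and Actg1 supply the cytoskeleton beneath the membrane and that of non-muscle cells. Cofilin-2 is the cofilin form typical of muscle, and several cytoskeletal genes, Actb and Actg1 among them, are known targets of serum response factor (SRF) and its monomer-sensing coactivators, the MRTFs.

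The windows from 250 bases before to 50 bases after the transcription start of Pfn1 and Tmsb4x are shown because these genes differed most among the 10 between the low-low muscles and the others apart from Actb. That of Actg1 is shown because it alone among the 9 members with a window held a CArG box, the sequence that SRF binds. Actb had no window and was not searched. Capitals mark matches to the CArG box, to TATAAA and to GGGCGG on either strand, where matches of GGGCGG may overlap. The sequences are from RefSeq on the assembly GRCr8 and run 5' to 3' along the gene's strand. They lie at chr10:55866538-55866837 on the minus strand for Pfn1, at chrX:30761361-30761660 on the plus strand for Tmsb4x and at chr10:106120902-106121201 on the minus strand for Actg1.
Pfn1: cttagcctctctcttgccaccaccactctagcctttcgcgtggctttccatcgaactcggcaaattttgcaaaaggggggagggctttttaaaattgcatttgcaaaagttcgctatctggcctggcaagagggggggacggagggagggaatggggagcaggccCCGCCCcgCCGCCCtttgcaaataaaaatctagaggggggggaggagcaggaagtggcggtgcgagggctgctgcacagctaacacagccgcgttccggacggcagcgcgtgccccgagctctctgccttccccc
Tmsb4x: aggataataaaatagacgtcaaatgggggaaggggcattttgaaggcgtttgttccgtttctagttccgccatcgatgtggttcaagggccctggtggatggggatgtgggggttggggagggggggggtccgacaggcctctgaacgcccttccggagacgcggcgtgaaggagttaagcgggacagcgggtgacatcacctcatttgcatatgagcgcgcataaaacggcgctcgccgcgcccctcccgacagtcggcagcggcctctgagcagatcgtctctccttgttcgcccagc
Actg1: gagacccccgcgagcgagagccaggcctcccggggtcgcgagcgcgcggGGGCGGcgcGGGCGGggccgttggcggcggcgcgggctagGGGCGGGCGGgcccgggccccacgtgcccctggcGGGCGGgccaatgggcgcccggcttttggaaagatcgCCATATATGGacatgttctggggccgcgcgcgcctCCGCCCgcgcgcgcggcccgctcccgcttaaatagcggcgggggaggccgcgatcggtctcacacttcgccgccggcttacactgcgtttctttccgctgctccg
The CArG box of Actg1, CCATATATGG, lay 90 to 81 bases before the start. It was found in 1 of the 9 member genes that had a window in the RefSeq table, against 1.64% of all 33469 windows of that length. GGGCGG was found in 8 of the 9, against 33.1% of all windows, with Tmsb4x as the exception, and TATAAA in 0 of the 9, against 14.2%. These matches describe letters in the windows and were not tested as binding sites.

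The 3 low-low arrays stood apart from the other 9 across the whole array, not at the actin genes alone. Over probe sets, which do not vary independently, Pearson's r was 0.896 to 0.919 between a low-low array and any other, 0.969 to 0.993 among the other 9 and 0.985 to 0.987 among the low-low 3. Controls of Gapdh, a glycolytic enzyme, read 2.54 ± 0.65, 3.46 ± 0.60 and 2.80 ± 0.13 log2 higher at the 3' than at the 5' end in the high-high, high-low and low-high muscles, and 0.54 ± 0.21 log2 higher in the low-low muscles (SD, n = 3 each). The labelled weights, which carry no unit, were 267 to 297 for the other 9 rats and 305 to 318 for the low-low rats, and the labelled ages, also without a unit, were 72 to 85 and 75. The part of RNA quality, body weight and age in the differences from the low-low muscles was not tested. Fits with the Gapdh 3' minus 5' signal, weight or age as a covariate are given as descriptions. That Gapdh signal was 0.39 to 0.78 log2 in the low-low arrays and 1.79 to 3.83 in the other 9, and the weights did not overlap either. A fit with either one extends a slope beyond the arrays that set it, so it cannot separate that measure from the low-low group.

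The actin genes were selected on their log2 differences between the low-low muscles and the others. In every contrast that uses the low-low arrays, limma's calls and adjusted p-values are therefore given as descriptions, not as tests. Among the 14 probe sets, 13 had a mean at or above 4.91 log2, the 40th percentile that the fit required. Pfn2 probe set 1367970_at was just above that limit, with a mean of 5.03 over the 12 arrays, and Capzb probe set 1381494_at just below it, with 4.89.

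Profilin-1 differed most. Pfn1 read 6.42, 6.42 and 6.37 log2 in the high-high muscles, 6.67, 6.04 and 6.07 in the high-low muscles and 6.54, 6.74 and 6.49 in the low-high muscles, against 10.75, 10.42 and 10.26 in the low-low muscles. The 9 muscles with a high input kept within a narrow band, and the nearest of them lay 3.52 log2 below the lowest low-low muscle. The mean of the 3 high-input groups was 4.06 ± 0.15 log2 (SE) below that of the low-low group, a size of 16.7-fold. A tissue-wide value such as this cannot separate less RNA per cell from fewer cells of the type that makes it, and the same holds for each gene below.

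Pfn2, the other profilin, gave unlike values on its 2 probe sets. On the dimmer, 1367970_at, it read 4.38, 4.69 and 4.997 log2 in the high-high, 4.74, 4.56 and 4.51 in the high-low and 4.66, 4.67 and 4.76 in the low-high muscles, against 6.32, 5.90 and 6.15 in the low-low muscles. All 9 high-input muscles were below the 3 low-low ones, but they also sat below an intensity of 50 (log2 5.64), the limit of the authors' own filter, so that the difference of -1.46 ± 0.13 log2 (SE) is set by dim values. Raising array values under 4.91 to that limit brought it to -1.20. On the brighter, 1387015_at, the 4 groups overlapped: group means were 8.92 ± 0.58, 9.07 ± 0.19 and 9.04 ± 0.09 log2 in the high-high, high-low and low-high muscles and 9.24 ± 0.46 in the low-low muscles (SD, n = 3 each), with 1 low muscle each in the high-high group (8.26) and the low-low group (8.71). Which transcripts each probe set reads was not given in the sources used here.

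Among the genes other than Actb, thymosin beta-4 was the next in size. Tmsb4x read 10.08, 9.85 and 10.02 log2 in the high-high muscles, 10.29, 9.74 and 9.82 in the high-low muscles and 9.79, 10.05 and 9.68 in the low-high muscles, against 12.53, 12.93 and 12.69 in the low-low muscles. Here too the 3 high-input groups overlapped one another, and all 9 muscles were at least 2.24 log2 below the low-low ones. The mean difference was -2.79 ± 0.14 log2 (SE), or 6.93-fold.

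Of the severing proteins, gelsolin was low in all 9 high-input muscles and cofilin-2 much less so. Gsn read 10.11, 10.32 and 10.65 log2 in the high-high muscles, 9.93, 10.34 and 10.71 in the high-low muscles and 10.47, 10.19 and 10.10 in the low-high muscles, against 12.48, 12.34 and 12.06 in the low-low muscles. The groups with a high input overlapped fully and none reached the low-low range, with a mean difference of -1.98 ± 0.17 log2 (SE), or 3.94-fold. Cfl2 probe set 1388483_at averaged 11.93 ± 0.22, 12.07 ± 0.21 and 11.88 ± 0.15 log2 in the high-high, high-low and low-high muscles and 12.46 ± 0.04 in the low-low muscles (SD, n = 3 each). The closest muscles on that probe set were 0.18 log2 apart, and on the second, 1388928_at, the groups overlapped, with means of 10.21, 10.29 and 10.25 against 10.40 log2 in the low-low muscles. The 2 mean differences for cofilin-2 were -0.50 ± 0.12 and -0.15 ± 0.13 log2 (SE).

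The capping protein and the actins completed the set. Capzb probe set 1399091_at read 8.20, 8.33 and 8.29 log2 in the high-high, 8.16, 8.30 and 8.32 in the high-low and 8.27, 8.17 and 8.48 in the low-high muscles, against 9.05, 9.40 and 9.19 in the low-low muscles. The groups were separate from the low-low group by 0.56 log2 at the nearest point, and the mean difference was -0.93 ± 0.10 log2 (SE), or 1.91-fold. The second Capzb probe set, 1381494_at, was too dim for the fit, with group means of 4.65 ± 0.09, 5.11 ± 0.28 and 4.65 ± 0.40 against 5.16 ± 0.30 log2 in the low-low muscles (SD, n = 3 each). On it the low-low muscles overlapped both the high-low and the low-high muscles. The high-high muscles (4.62, 4.58 and 4.75) lay just below the high-low muscles (4.78, 5.26 and 5.28).

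The 2 cytoplasmic actins gave differences of unlike size. Actg1 probe set 1371327_a_at read 12.68, 12.45 and 12.56 log2 in the high-high muscles, 12.72, 12.44 and 12.60 in the high-low muscles and 12.60, 12.69 and 12.41 in the low-high muscles, against 13.17, 13.16 and 13.05 in the low-low muscles. All 9 were below the low-low muscles, by 0.32 log2 at the nearest point, with a mean difference of -0.55 ± 0.10 log2 (SE). The dim Actg1 probe set 1384581_at ran the other way, with means of 5.47 ± 0.18, 5.55 ± 0.26 and 5.54 ± 0.16 log2 in the high-high, high-low and low-high muscles and 5.17 ± 0.10 in the low-low muscles (SD, n = 3 each), so the gene has probe sets of opposite sign. For Actb the 3' probe set averaged 10.51 ± 0.11, 10.78 ± 0.26 and 10.70 ± 0.02 log2 in the high-high, high-low and low-high muscles and 12.47 ± 0.13 in the low-low muscles (SD, n = 3 each). Its mean difference of -1.81 ± 0.11 log2 (SE) was that of 1 of 3 parts of the transcript, which are set side by side below.

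**Figure D1:**
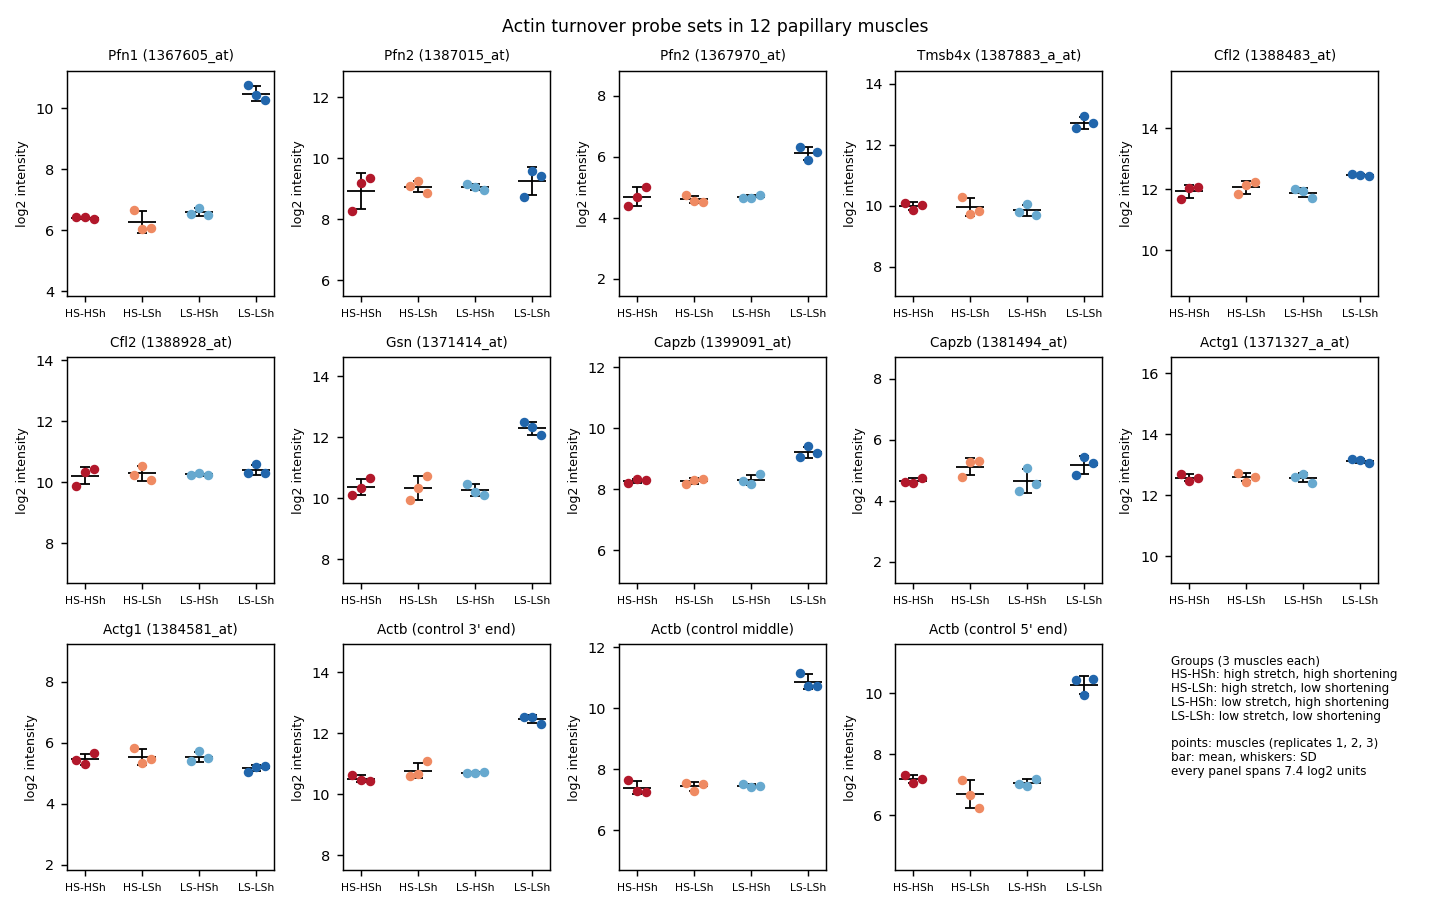
Log2 intensity of each of the 14 actin turnover probe sets (y axis, every panel spanning the same number of log2 units) in the 4 groups of 3 muscles (x axis, high stretch high shortening at the left and low stretch low shortening at the right); points are muscles, bars means and whiskers SD. Pfn1, Tmsb4x, Gsn and the 3 Actb controls sit 1.24 to 3.52 log2 higher in every low-low muscle than in the nearest other muscle.

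As a count, 10 of the 13 fitted probe sets were lower and 1 was higher in the 3 high-input groups than in the low-low group at an adjusted p under 0.05 (limma), where 27.6% of all 18627 probe sets tested were lower and 28.6% higher. The same 10 had all 9 high-input arrays below the 3 low-low arrays, as did 22.7% of all probe sets. The members' median difference was -1.46 log2, against 0.05 over all probe sets tested. Because this contrast was known when the genes were picked, nothing is read from these counts. The Gapdh signal and the weights share no range between the low-low and the other arrays. The covariate fits that follow therefore do not show what remains after adjustment. With the Gapdh 3' minus 5' signal as a covariate, the difference of Actg1 probe set 1371327_a_at was -0.17 and that of Cfl2 probe set 1388483_at -1.26, that of Gsn -3.06 and that of Pfn1 -3.36 log2. In that fit Pfn2 probe set 1387015_at was -1.40 and Cfl2 probe set 1388928_at -0.80, neither called, and both Actg1 probe sets lost their calls, 1384581_at at 0.76 log2. With labelled weight as a covariate 3 calls were lost, those of Actg1 probe sets 1371327_a_at (-0.33 log2) and 1384581_at (0.41) and of Cfl2 probe set 1388483_at (-0.48).

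Each high input was associated with the low values on its own. High-low muscles, with stretch as their only high input, differed from low-low muscles by -4.22 ± 0.18 log2 for Pfn1, and low-high muscles, with shortening as their only high input, by -3.89 ± 0.18 log2 (SE). For Tmsb4x these 2 differences were -2.77 ± 0.17 and -2.88 ± 0.17 log2, and for Gsn -1.96 ± 0.21 and -2.04 ± 0.21 log2. Both comparisons use the same low-low arrays, the values of which were known when the genes were picked, so they are descriptions. Those arrays also stood apart in the 3' minus 5' signal of the Gapdh and Actb controls and in labelled weight. An effect of either input cannot be told apart from these here. In each of them 10 of the 13 probe sets were lower at an adjusted p under 0.05, where 24.4% of all probe sets were lower for stretch at low shortening and 23.7% for shortening at low stretch.

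The main effects average over the levels of the other input, so they too contain the low-low arrays. For stretch, 9 of the 13 probe sets were lower at an adjusted p under 0.05, beside 19.2% of all probe sets, and for shortening 10 were lower, beside 17.1%. The interaction sets the difference between shortening levels in stretched muscles against that in slacker ones. It was 4.03 ± 0.25 log2 for Pfn1, 2.91 ± 0.24 for Tmsb4x, 2.07 ± 0.29 for Gsn and 0.92 ± 0.18 for Capzb probe set 1399091_at (SE). Between high and low shortening, Pfn1 differed by -3.89 log2 at low stretch and by 0.15 log2 at high stretch. In all, 9 probe sets were called in that direction, beside 17.1% of all probe sets.

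Whether the 3 high-input groups differ from one another in these genes can be tested without the low-low muscles. Those muscles entered the 3 contrasts below only through the estimate of spread and the filter on the mean of all 12 arrays. Pfn2 probe set 1367970_at, with a mean of 4.66 log2 in the other 9 arrays, passed that filter only through its low-low values. In high-high against low-high muscles (stretch at high shortening), high-high against high-low muscles (shortening at high stretch) and high-low against low-high muscles (stretch alone against shortening alone), limma called 0 of the 13 probe sets, and 0 of all 18627, which is 0% in each. At an unadjusted p under 0.05 there were 0, 1 and 0 members, where 3.55%, 4.35% and 6.17% of all probe sets were below that p. The median difference of the members was -0.03, -0.02 and 0.02 log2 in these contrasts, against -0.02, 0.00 and -0.01 over all probe sets.

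For profilin-1 the order of the 3 high-input groups was low-high (6.59 ± 0.13 log2), high-high (6.41 ± 0.03) and high-low (6.26 ± 0.36; SD, n = 3 each). The high-high muscles all lay below the low-high muscles, yet their difference of -0.19 log2 had a 95% confidence interval of -0.57 to 0.20. The high-low muscles overlapped both other groups because replicate 1 read 6.67 and the other 2 read 6.04 and 6.07. High-low minus low-high was -0.33 log2 (95% confidence interval -0.72 to 0.05, adjusted p = 0.815 by limma), without high-low replicate 1 it was -0.54, and with the Gapdh 3' minus 5' signal as a covariate it was -0.14.

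On the fitted probe sets of thymosin, gelsolin, cofilin and the capping protein, the 3 high-input groups overlapped one another. Tmsb4x differed by 0.15 log2 (95% confidence interval -0.22 to 0.51) for stretch at high shortening, 0.03 (-0.33 to 0.40) for shortening at high stretch and 0.11 (-0.25 to 0.48) between the groups with 1 high input. For Gsn these differences were 0.11 (-0.34 to 0.55), 0.03 (-0.42 to 0.48) and 0.07 (-0.38 to 0.52) log2. Intervals of this width hold differences of up to 0.51 log2 in Tmsb4x and 0.55 log2 in Gsn, so the absence of a call does not show that the groups are alike. Capzb probe set 1399091_at had the narrowest intervals outside Actg1, with differences of -0.03, 0.01 and -0.05 log2 and bounds no farther out than -0.32 and 0.29.

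Among the 13 fitted probe sets, Pfn1 and the Actb 3' probe set were the 2 with a pair of groups that did not overlap in these contrasts. On the Actb 3' probe set every high-high muscle (10.65, 10.46 and 10.44 log2) was below every low-high muscle (10.68, 10.68 and 10.72), a difference of -0.18 log2 (95% confidence interval -0.48 to 0.12). Both were lower in high-high muscles in that contrast, where 9.66% of all probe sets did not overlap. In the other 2 contrasts 0 of 13 were free of overlap, beside 8.14% and 10.6% of all probe sets. The Actb 5' probe set gave the lowest unadjusted p of the set, 0.0400, for high-high minus high-low muscles, at 0.48 log2 (95% confidence interval 0.03 to 0.94, adjusted p = 0.999 by limma). High-low replicates 2 and 3 were the low ones there, at 6.67 and 6.25 log2 against 7.18 in replicate 1, and the same 2 arrays had the lowest Gapdh 5' signals, 9.26 and 9.16 log2. With the Gapdh 3' minus 5' signal as a covariate the difference was 0.08 log2, without high-low replicate 3 it was 0.26 and without high-low replicate 1 it was 0.72.

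**Figure D2:**
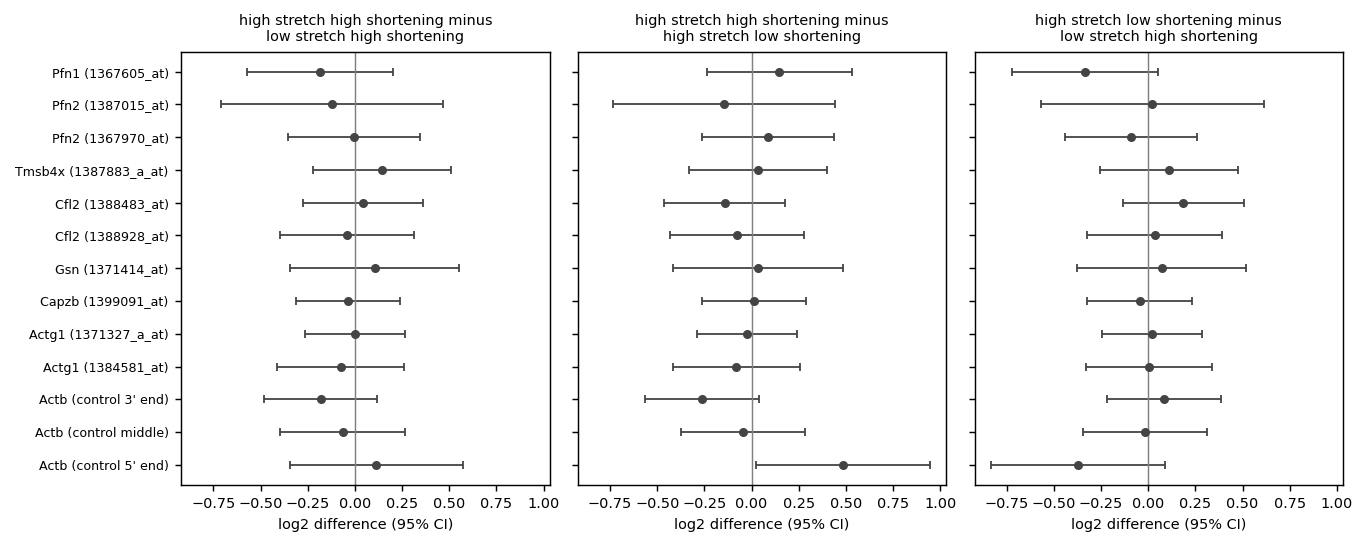
Log2 difference with its 95% confidence interval (x axis) for the 13 fitted actin turnover probe sets (y axis) in the 3 contrasts that leave out the low-low muscles. All intervals include 0 except that of the Actb 5' probe set for high-high minus high-low, at 0.48 (0.03 to 0.94).

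The 3 parts of the Actb transcript did not differ from the low-low muscles by the same amount. The middle probe set read 7.66, 7.28 and 7.27 log2 in the high-high muscles, 7.56, 7.29 and 7.51 in the high-low muscles and 7.53, 7.42 and 7.46 in the low-high muscles, against 11.15, 10.74 and 10.74 in the low-low muscles. The 5' probe set read 7.31, 7.05 and 7.19 log2 in the high-high, 7.18, 6.67 and 6.25 in the high-low and 7.04, 6.97 and 7.203 in the low-high muscles, against 10.43, 9.95 and 10.46 in the low-low muscles. Differences from the low-low group were thus -3.44 ± 0.12 log2 (10.8-fold) in the middle and -3.29 ± 0.17 log2 (9.81-fold) at the 5' end, beside -1.81 ± 0.11 log2 at the 3' end (SE). The 3' signal exceeded the 5' signal by 3.33 ± 0.08, 4.08 ± 0.71 and 3.63 ± 0.10 log2 in the high-high, high-low and low-high muscles and by 2.19 ± 0.37 log2 in the low-low muscles (SD, n = 3 each).

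Gapdh too fell more from the 3' to the 5' end in the high-input muscles, on a transcript with a smaller difference at its 3' end. The Gapdh difference grew from part to part, whereas that of Actb was no larger at the 5' end than in the middle. The 9 high-input arrays averaged 0.37 log2 below the low-low arrays at its 3' end, 1.27 below in the middle and 2.77 below at the 5' end. The size of a difference from the low-low muscles therefore depended on the part of the transcript that a probe set reads, in both control genes. At the 3' end alone, Actb differed by -1.81 log2 and Gapdh by -0.37 log2. How far the other members' probe sets lie from their 3' ends was not given in the sources used here, and the part of RNA quality in their differences was not tested.

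**Figure D3:**
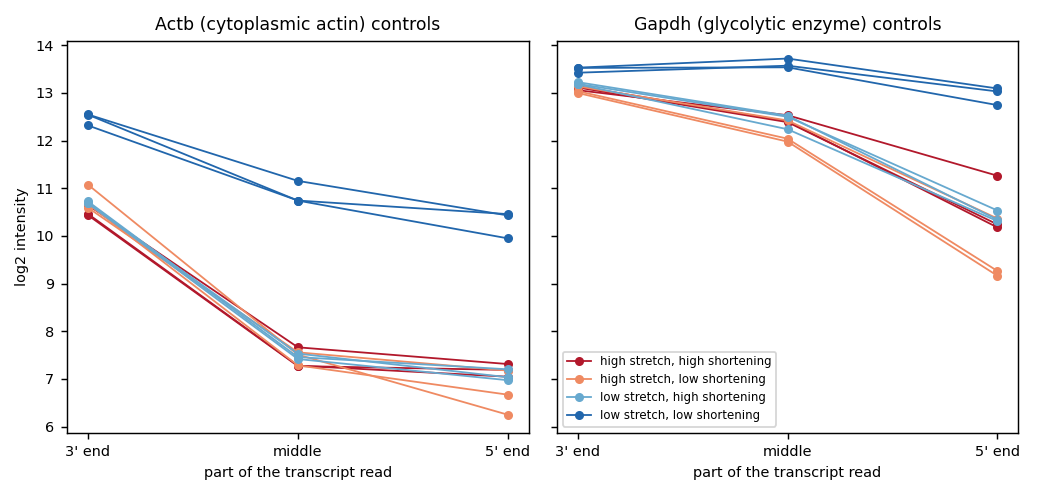
Log2 intensity (y axis) of the Actb controls (left panel) and Gapdh controls (right panel) at the 3' end, middle and 5' end of the transcript (x axis), 1 line per muscle, coloured by group. The low-low lines run above the rest and fall less from the 3' to the 5' end. The mean 3' minus 5' signal for Actb was 2.19 log2 in them, against 3.33 to 4.08 log2 in the other groups. For Actb the smaller fall lay between the 3' end and the middle, not between the middle and the 5' end.

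Other genes of actin dynamics, in 3 lists that hold none of the members, did not share a direction. Of 30 tested genes of nucleation and elongation, 8 fell and 10 rose in the 3 high-input groups against the low-low group, with a median of 0.08 log2. Of 25 genes of depolymerization, capping and monomer binding, 10 fell and 8 rose, with a median of 0.05 log2. Of 13 genes of the MRTF and SRF axis, 2 fell and 1 rose, with a median of -0.16 log2. Among all 10316 genes at 1 probe set each, 29.0% fell and 27.7% rose, with a median of 0.02 log2. In the 3 contrasts without the low-low muscles 0 of these 68 genes were called, beside 0% of all genes. At an unadjusted p under 0.05 there were 1, 2 and 4 of the 68, beside 3.55%, 4.35% and 6.17% of all probe sets tested, so nothing is read from these counts.

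Named by the smallest adjusted p in each list, these genes moved in both directions. Among nucleators, Actr2, a core subunit of the Arp2/3 complex, rose by 0.90 ± 0.10 log2 (SE), while Arpc1b and Arpc5l, also Arp2/3 subunits, fell by 0.53 ± 0.11 and by 0.69 ± 0.14 log2, and Brk1, a subunit of the WAVE complex that activates Arp2/3, fell by 0.59 ± 0.09 log2 (limma, adjusted p from 1.01e-05 to 0.00133). Among genes that act on filament ends and monomers, Coro6, a coronin, averaged 5.33 ± 0.08, 5.32 ± 0.22 and 5.21 ± 0.22 log2 in the high-high, high-low and low-high muscles and 8.40 ± 0.16 in the low-low muscles (SD, n = 3 each). Its 3 high-input groups were close together and it fell by 3.12 ± 0.12 log2 (SE), whereas Twf1, the monomer-binding protein twinfilin-1, rose by 1.74 ± 0.12 log2. Cap2, a cyclase-associated protein that recycles monomers, fell by 1.42 ± 0.13 log2, and Gmfb, which debranches Arp2/3 networks, rose by 0.73 ± 0.09 log2 (SE).

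On the MRTF and SRF axis, Actn1, a filament crosslinker, rose by 0.98 ± 0.18 log2, while Tagln2, a transgelin, fell by 0.97 ± 0.21 and Acta2, smooth muscle actin, by 0.47 ± 0.12 log2 (SE), and Zyx, the focal adhesion protein zyxin, differed by -0.24 ± 0.10 log2 (adjusted p = 0.0525, limma). With labelled weight as a covariate the values of Tagln2 and Acta2 were -0.15 and -0.16 log2, neither of them called, and Arpc1b was not called at -0.50 log2. With the Gapdh 3' minus 5' signal as a covariate Tagln2 was -0.01, Acta2 -0.34, Arpc1b -0.14, Actr2 0.59, Brk1 -0.77 and Arpc5l -0.97 log2, with adjusted p of 0.0590 to 0.994.

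**Figure D4:**
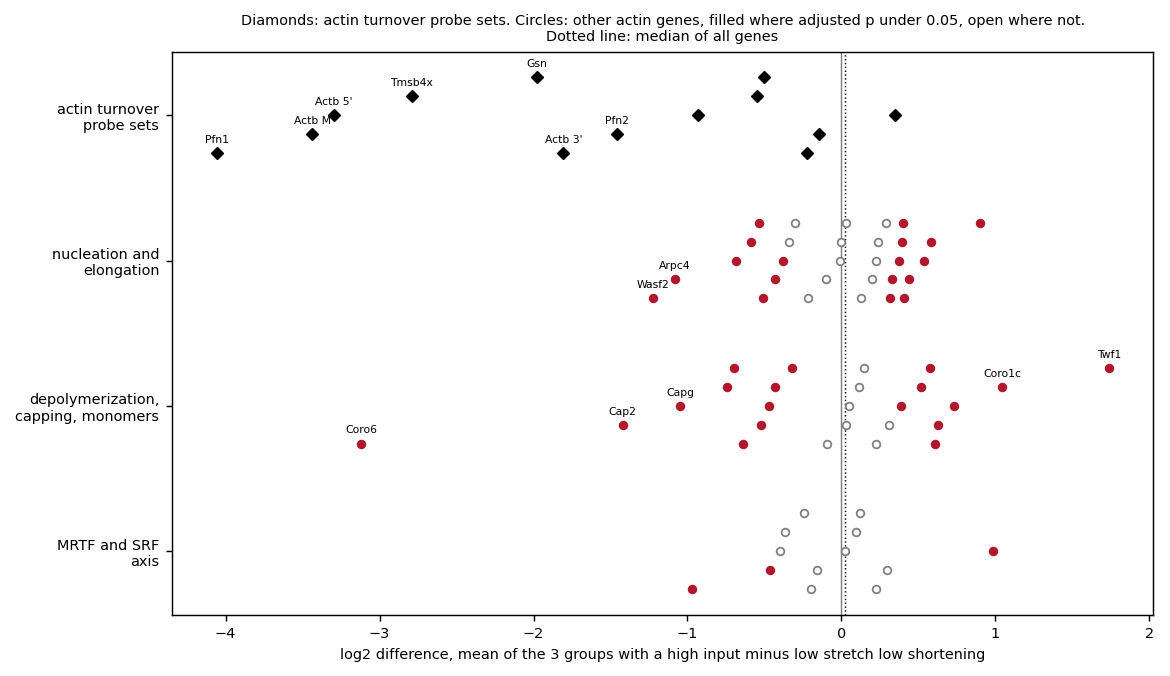
Log2 difference between the mean of the 3 high-input groups and the low-low group (x axis) for the 13 fitted actin turnover probe sets (diamonds, chosen with this difference known) and for the 68 other actin genes in 3 lists (circles, filled where limma's adjusted p was under 0.05 and open where it was not). The members reach down to -4.06 (Pfn1), and the lists spread to both sides of the dotted line, the median of all genes at 0.02.

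Markers of the cell types that a papillary muscle holds were read in the same comparison, beside the 29.0% of all genes that fell and the 27.7% that rose. Of 9 cardiomyocyte markers tested, 5 fell, Tnni3 by 0.97 ± 0.08 and Myl2 by 0.84 ± 0.09 log2 (SE) among them, 1 rose (Ryr2), and 3 were not called, and the mean of the list lay between 13.15 and 13.34 log2 in the 9 high-input muscles and between 13.56 and 13.59 in the low-low muscles. Heart muscle markers were thus bright in every sample. Of 5 skeletal markers on the array only Myh1 passed the filter, and it was not called. It read 12.09 to 12.48 log2 in the high-input muscles and 12.28 to 12.43 in the low-low muscles. Which transcripts its probe set reads was not given in the sources used here, so its brightness is not read as skeletal myosin. Of 9 markers of macrophages and leukocytes, 4 fell, the 3 C1q chains and Adgre1, and 1 (Cd68) rose, with a list mean of 6.58 to 6.89 against 6.92 to 7.39 log2 in the low-low muscles.

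Cytoplasmic actin, thymosin beta-4 and profilin-1 are known to be abundant in non-muscle cells. Of 8 fibroblast markers 2 fell, Col1a2 with a difference of -2.17 ± 0.23 and Col3a1 with -2.52 ± 0.33 log2 (SE), and Pdgfra rose, while Dcn, Lum, Postn, Col1a1 and Tcf21 were not called, with a list mean of 8.02 to 8.65 against 8.71 to 8.79 log2 in the low-low muscles. Of 9 endothelial markers 3 fell (Pecam1, Tie1 and Esam) and 2 rose (Kdr and Tek), and the list means overlapped, at 7.64 to 8.19 against 7.61 to 8.41 log2 in the low-low muscles. Of 7 smooth muscle and pericyte markers 2 fell (Des, which cardiomyocytes also express, and Acta2), with a list mean of 6.31 to 6.65 against 6.74 to 7.13 log2 in the low-low muscles. Of 2 erythroid markers Hbb fell and Slc4a1 was not called, with a list mean of 5.70 to 6.38 against 6.12 to 6.90 log2 in the low-low muscles. The only Schwann cell marker tested, Sox10, was not called, at 5.27 to 5.88 against 4.93 to 5.77. The part of a shift in cell types in the actin genes' differences was not tested.

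The genes most like Pfn1 over the 12 arrays were those that share its low-low difference. Among 10309 other genes, Taf10, a subunit of general transcription factor complexes, had the highest Pearson r (0.995), followed by S100a13, Cops3, Gpx4 and Csnk2b (each 0.994), and 683 genes had an r of at least 0.95. Over the 9 arrays outside the low-low group a different 5 led, Wbp11 (0.975), Hnrnpab (0.969), Pdcd2 (0.967), Dnlz (0.958) and Ccdc124 (0.947), and 4 genes reached 0.95. In those 9 arrays Pfn1 spans 6.04 to 6.74 log2, so the second list orders small differences, and the points share arrays, animals and RNA quality. Of these 5, Wbp11 differed from the low-low group by only -0.05 log2 and Pdcd2 by 1.14 log2 in the other direction from Pfn1.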

How the data were processed

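The deposited value table holds log2 intensities of 31099 probe sets. RMA is the tool that the submitters' processing notes name for the authors' normalization, and its version was not given in the sources used here. A deposited filtered table holds the same log2 values for 16391 probe sets, with spike-in controls and dim probe sets removed per the file headers. Biotin-labelled cRNA was made with a 3' in vitro transcription kit from 100 ng of RNA per the labels' protocols. Symbols came from GEO's platform annotation, and sequences from RefSeq.

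Limma (version 3.58.1, R 4.3.3) was fitted to the 12 arrays with 1 mean per group, over 18627 of 31045 features, those at or above the 40th percentile of mean value, and p-values were adjusted over them by Benjamini-Hochberg with a threshold of 0.05. The script was tested on simulated data. A gene outside the members was represented by its probe set of highest mean. Other actin genes were named as the 4 of smallest adjusted p per list, with 1 further list not reported here, and genes like Pfn1 as the 5 of highest Pearson r. Residuals of 18 same-numbered pairs had r of -0.16 to 0.21 (mean 0.0042, against -0.0014 for other pairs), so replicates were treated as unpaired, and 0 pairs of arrays were identical. There were 14 alternatives and 12 fits that left out an array. The members, lists and tests were chosen with earlier results of these data known. The number of arrays limits the precision. Figures used matplotlib 3.10.9 in Python 3.11.15.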

Additional observations from a re-analysis of the deposited data

Results flagged for a closer look

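For 9 of the 13 fitted probe sets limma's interaction term was past an adjusted p of 0.05. This term is the difference between shortening levels in stretched muscles minus that in slacker ones. The interaction was 4.03 log2 for Pfn1, 2.91 for Tmsb4x, 2.07 for Gsn, 1.51 for Pfn2 probe set 1367970_at, 0.92 for Capzb probe set 1399091_at and 0.54 for Actg1 probe set 1371327_a_at. For the Actb controls it was 1.51 at the 3' end, 3.36 in the middle and 3.69 at the 5' end. The genes were picked with the low-low values known and 17.1% of all probe sets were called in this direction, so these values are descriptions. Pfn2 probe set 1367970_at entered the fit only through the low-low group, with a mean of 4.66 log2 in the other 9 arrays, under the filter of 4.91, and 6.12 in the low-low group. With the Gapdh 3' minus 5' signal as a covariate 7 were called: Pfn2 probe set 1367970_at (1.78 log2, adjusted p = 0.0670 by limma), the Actb 3' probe set (1.68, adjusted p = 0.0508) and Actg1 probe set 1371327_a_at (0.03, adjusted p = 0.976) lost their calls and Cfl2 probe set 1388483_at (1.44, adjusted p = 0.0397) gained one. The Actg1 call was also lost with weight as a covariate (0.23), with quantile normalization applied again (0.25) and when any of 7 single arrays was left out.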

How the results depend on the processing

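In the 3 contrasts without the low-low muscles, 0 members were called under each of the alternatives and with each array left out, and the lowest of 984 adjusted p-values was 0.261. Of 2874 member values recomputed over 9 contrasts, 2805 kept their side of the threshold, 62 lost a call and 7 gained one. Of the called values 0 reversed, whereas values not called could change sign and still count as kept. Gsn for shortening at high stretch, for example, was 0.03 log2 in the main fit and -0.17 without high-low replicate 1. With 1 probe set per gene, which leaves 7 members, 6 were called for stretch at low shortening, 6 for shortening at low stretch, 5 for the stretch main effect, 6 for the shortening main effect, 5 for the interaction and 6 for the 3 groups minus the low-low group. In the authors' filtered table, which holds 9 members, 7 were called in the last of these. Leaving out single arrays gave 9 to 10 calls for stretch at low shortening, 10 to 11 for shortening at low stretch, 8 to 9 and 9 to 10 for the stretch and shortening main effects, 8 to 9 for the interaction and 10 to 11 for the 3 groups minus the low-low group. With the replicate number as a block these counts were 9, 10, 9, 10, 9 and 10, and 0 in the contrasts without the low-low group; the block moved no count past 1.5 times. Of the 68 other actin genes 39 were called in the 3 groups minus the low-low group, where 29.0% of all genes fell and 27.7% rose. With weight as a covariate 16 were called, with the Gapdh 3' minus 5' signal as a covariate 10, with the replicate block 39 and with single arrays left out 33 to 42. The cause of these falls was not tested. Shares of all genes under the alternatives are not given here, so no count in this section is read as particular to the actin genes. Quantile normalization applied again gave Cfl2 probe set 1388483_at -0.23 log2 in the 3 groups minus the low-low group, and its call was lost. The call of Actg1 probe set 1384581_at (0.35 log2) was lost under 5 alternatives and 5 left-out arrays.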
